A study of Mus musculus with 2 samples.

Results

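The elastic fibre genes described here are 10 genes for the fibre and its assembly: elastin (Eln), fibrillins 1 and 2 (Fbn1, Fbn2), the microfibril protein Mfap5, the fibulins Fbln1, Fbln2, Fbln5 and Efemp2, and the cross-linking enzymes Lox and Loxl1. They were chosen by name, and every probe set that the platform annotation gives to exactly 1 of them was taken. This found 8 of the 10 genes, with 18 of the 34945 probe sets that have 1 gene. No probe set was named for Fbn1 and Efemp2 in the annotation used here, and these 2 genes were not analysed.

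The cells were mouse primary osteoblasts, which lay down bone, and came from the calvarial bones (the skull vault) of CD1 mice aged 7 days. Both cultures were first kept for 24 h in medium with bovine serum albumin in place of serum. One then received the vehicle DMSO for 24 h and the other 2 µM PP1, an inhibitor of c-Src and related tyrosine kinases, for 24 h. There was 1 array for each culture, so every value below describes these 2 arrays, and nothing in them separates the treatment from a difference between cultures.

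Elastic fibres give tissues recoil. Cells secrete soluble tropoelastin, which is laid onto a scaffold of fibrillin microfibrils with the help of fibulins and is then cross-linked into insoluble elastin by copper-dependent lysyl oxidases. The same microfibrils hold latent TGF-beta in the matrix, and lysyl oxidases cross-link collagen as well, the main fibre of bone.

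With PP1, elastin was the lowest of the 8 genes, at 3.21-fold lower than with DMSO relative to the bulk of genes by its representative probe set; with the median over probe sets, Mfap5 (-0.94 on the log2 scale) was below Eln (-0.88). The short fibulin Fbln5 was 1.74-fold lower and Mfap5 1.55-fold lower. Loxl1 was 1.33-fold lower, and the representative probe sets of Lox and Fbln2 lay close to the bulk of genes. Fbln1 and Fbn2 were 1.33-fold and 1.31-fold higher on this scale, and lower in the values as deposited. The genes for the core, the scaffold and the cross-links of the fibre thus had log2 ratios spread from -1.68 to 0.41.

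These ratios compare MAS5 signals, the array maker's summary of the probes for 1 transcript, after the PP1 array was multiplied by 1.68 to give both arrays the same trimmed mean. A negative log2 ratio means a lower signal with PP1. As deposited, the PP1 array was dimmer, with a shift of -0.71 in the median log2 ratio of all genes, and all 8 genes, Fbn2, Fbln1 and Fbln2 included, then had a lower signal with PP1. Under a scaling to 18 bacterial hybridization controls the shift was -0.80, with the same result. Each direction below is therefore relative to the bulk of genes, and whether a transcript changed in absolute amount was not measured. Signals under 31.7, the median of all probe sets, were set to that floor.

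Of the 8 measured genes, 1 was at least 2-fold lower, against 1.55% of all 12111 measured genes, and 0 were at least 2-fold higher, against 2.97%. At 1.5-fold the count was 3 lower, against 7.37% of all genes, and 0 higher, against 10.6%. The log2 ratio was below 0 for 5 of the 8, against 49.0% of all genes. The median over the 8 was -0.23, against 0.01 over all measured genes. The list is short, and these counts describe it without a test.

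With no replicate error at hand, the values are set beside the spread between probe sets of the same gene. That SD was 0.41 on the log2 scale, over 4745 genes for which several probe sets exceeded the floor with DMSO and with PP1. It measures disagreement between probes and leaves out the variation between cultures. Within the 5 elastic fibre genes that allow it, the SD was 0.24. Eln is not among the 5, and a dim probe set of Lox is left out, since each had a probe set above the floor with DMSO only. The 2 widest spans between probe sets, 1.61 for Eln and 1.07 for Lox with the floor, are therefore not in this SD. Of the 18 probe sets, 13 exceeded the floor on both arrays, 2 with DMSO only and 3 on neither.

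**Figure D1:**
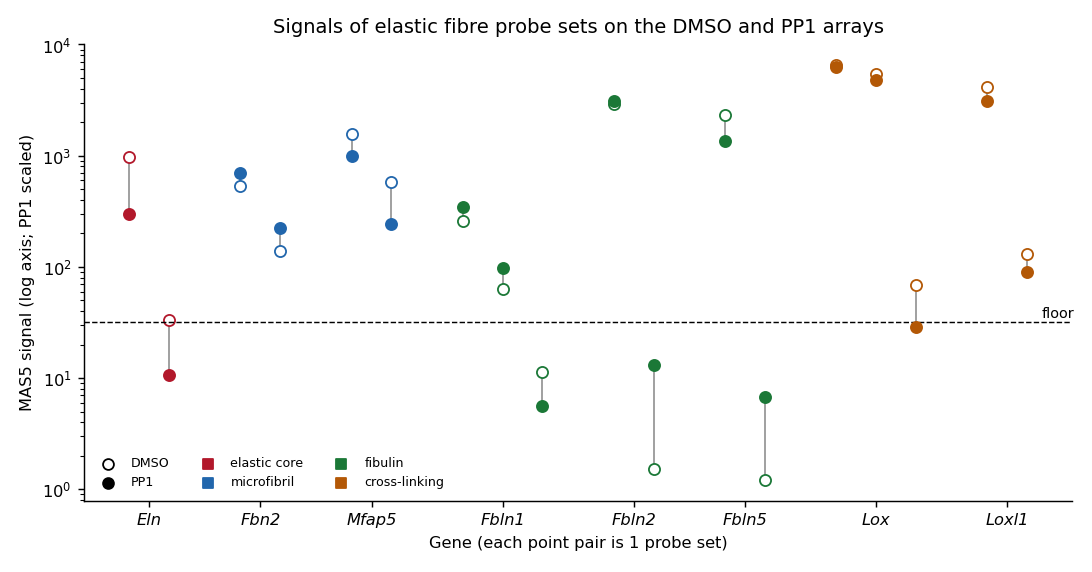
MAS5 signal on a log axis for each of the 18 probe sets, with DMSO as open and PP1 (scaled) as filled circles; a grey line joins the 2 arrays and the dashed line is the floor of 31.7. Both probe sets of Eln, both of Mfap5 and the upper one of Fbln5 have the filled circle below the open one, while those of Fbn2 and the upper 2 of Fbln1 have it above; as deposited, without the scaling, these last 4 are lower with PP1 too.

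Elastin is the protein of the amorphous core and the source of the recoil. Its representative probe set had a signal of 964 with DMSO and 301 with PP1 after scaling (179 as deposited), a log2 ratio of -1.68. Of all 12111 measured genes, 35 had a lower ratio, which puts Eln at rank 36. Among the 500 probe sets nearest to it in mean signal, the central 95% of log2 ratios ran from -0.91 to 0.98, and 0.2% were as low. These comparisons describe the 2 arrays and are no test of the treatment.

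The other probe set of Eln was dim, and its ratio depends on the floor. Its signals were 33.4 with DMSO and 10.7 with PP1. With the floor, the ratio was -0.07, a bound that says only that the signal was at least 1.05-fold lower. Without it the ratio was -1.64, next to the -1.68 of the representative probe set. The 2 probe sets of Eln thus differed by 1.61 on the log2 scale with the floor, and lay close together without it. Both are assigned to the same transcript sequence by the platform annotation. The DMSO signal of the dim probe set lay just above the median of all probe sets on the arrays.

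**Figure D2:**
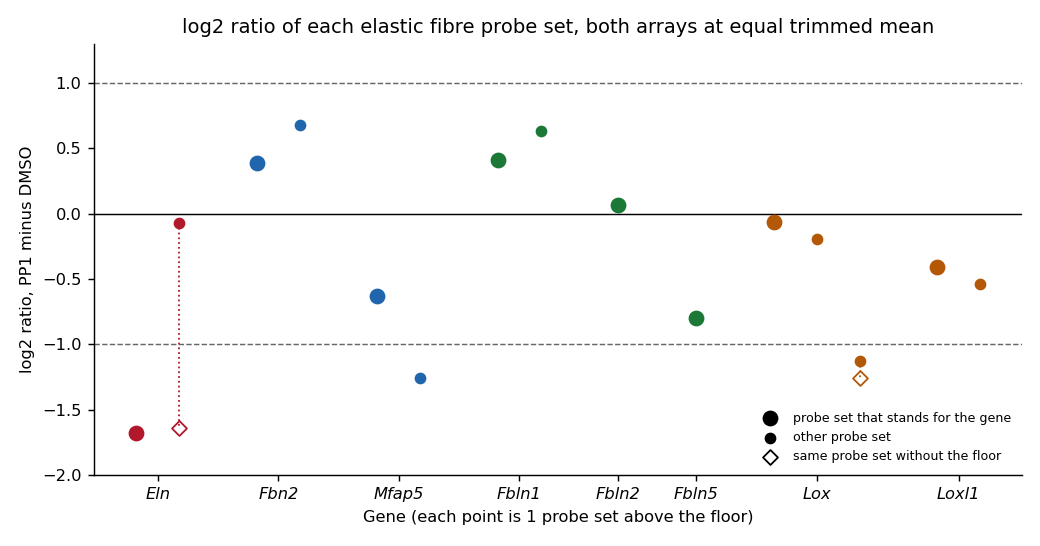
log2 ratio (PP1 minus DMSO) of each of the 15 probe sets above the floor on at least 1 array; large points are the probe sets that stand for their genes, open diamonds give the same probe set without the floor, and dashed lines mark 2-fold. The second Eln point sits at -0.07 with the floor and at -1.64 without it, and the third Lox point at -1.13 and -1.26.

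The microfibril genes were split. Mfap5, a small glycoprotein that binds fibrillins, had a signal of 1551 with DMSO and 999 with PP1 by its representative probe set, a log2 ratio of -0.63. Its other probe set gave 583 and 244, a ratio of -1.26, or 2.39-fold lower. Both therefore put Mfap5 lower with PP1, by sizes that differ by 0.62, although the annotation assigns both to the same transcript sequence. Of the 500 probe sets nearest in signal, 4.8% were as low as the first and 0.8% as low as the second. Taking the median over both, Mfap5 stood at -0.99 relative to the bulk of genes, just short of 2-fold.

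Fibrillin 2, the fibrillin best known from development, went the other way on this scale. Its representative probe set read 539 with DMSO and 704 with PP1, a log2 ratio of 0.38, and the other read 139 and 222, a ratio of 0.68. Both ratios are above 0, and 85.8% and 89.4% of probe sets of like signal lay at or below them. In the signals as deposited, 419 and 132.2 with PP1, both were lower than with DMSO. The ratios of Mfap5 and Fbn2 differed by -1.02 within these arrays, a 2.03-fold difference that does not depend on the scaling factor.

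The fibulins also ran in different directions. Fbln5 binds tropoelastin and lysyl oxidase-like proteins and is needed for elastic fibres to form. Its signal was 2335 with DMSO and 1344 with PP1, a log2 ratio of -0.80. In the order of all measured genes it stood at rank 391 from the lowest, and 2.4% of probe sets of like signal were as low. Its other probe set, with signals of 1.21 and 6.70, was under the floor on both arrays, so the value rests on 1 probe set.

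Fbln1, a larger fibulin found in elastic fibres and in basement membranes, stood at 0.41 by its representative probe set, with signals of 261 and 347. Its second probe set read 63.0 and 97.7, a ratio of 0.63, and the third was under the floor (11.4 and 5.63). As deposited, both usable probe sets were lower with PP1 (207 and 58.2). Fbln2, a relative that also binds fibrillin and elastin, had signals of 2942 and 3073 and a ratio of 0.06, from 1 usable probe set; the other was under the floor (1.53 and 13.0). Fbln5 lay 1.21 below Fbln1 and 0.86 below Fbln2 on the log2 scale. These gaps are differences within the arrays, so the common scaling factor cancels. A gap between 2 genes holds the probe error of both, so the SD of 0.41 between probe sets of a single gene understates its spread. That SD also leaves out the variation between cultures.

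The promoters of these 3 genes are shown because members of 1 family had unlike ratios. RefSeq promoter windows on GRCm38.p6 were given for Fbln5, Fbln1 and Fbln2 among the measured members, and not for Eln, Fbn2, Mfap5, Lox and Loxl1. Each line has the 250 bases before the annotated start, 5′ to 3′ on the strand of the gene, using the outermost of 2 starts for Fbln5 and Fbln1. Capitals mark matches to any of 5 motifs on either strand: TGACTCA (AP-1), GGAATG (TEAD), the SRF CArG box, CACGTG (E-box) and GGGCGG (GC box).
Fbln5, chr12:101819120-101819369, minus strand: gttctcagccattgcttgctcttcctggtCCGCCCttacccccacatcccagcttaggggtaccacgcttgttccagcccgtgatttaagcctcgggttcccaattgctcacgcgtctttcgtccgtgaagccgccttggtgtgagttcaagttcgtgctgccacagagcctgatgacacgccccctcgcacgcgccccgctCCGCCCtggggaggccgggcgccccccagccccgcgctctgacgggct
Fbln1, chr15:85205699-85205948, plus strand: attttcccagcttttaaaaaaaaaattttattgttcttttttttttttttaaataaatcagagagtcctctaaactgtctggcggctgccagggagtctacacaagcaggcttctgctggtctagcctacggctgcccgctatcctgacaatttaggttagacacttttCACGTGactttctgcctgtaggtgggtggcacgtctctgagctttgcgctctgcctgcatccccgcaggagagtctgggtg
Fbln2, chr6:91212514-91212763, plus strand: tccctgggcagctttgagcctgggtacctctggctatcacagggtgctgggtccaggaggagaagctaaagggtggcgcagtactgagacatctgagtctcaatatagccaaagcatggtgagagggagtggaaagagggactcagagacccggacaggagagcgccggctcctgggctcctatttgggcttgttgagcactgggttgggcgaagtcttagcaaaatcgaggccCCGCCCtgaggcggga

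The Fbln5 window held 2 GC boxes, which begin at -221 and -48 counted from the start, and the Fbln2 window 1, at -16. The Fbln1 window held an E-box at -81 and no GC box. None of the 3 held the AP-1, TEAD or CArG letters. Over all 32851 windows of this length, 32.7% held a GC box, 6.02% the E-box, 4.46% the AP-1, 12.6% the TEAD and 1.47% the CArG motif, so most windows lack each of them. The G and C content was 65.2% for Fbln5, 46.4% for Fbln1 and 58.8% for Fbln2, against a median of 52.4% over all windows. A match is a stretch of letters and shows no binding.

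**Figure D3:**
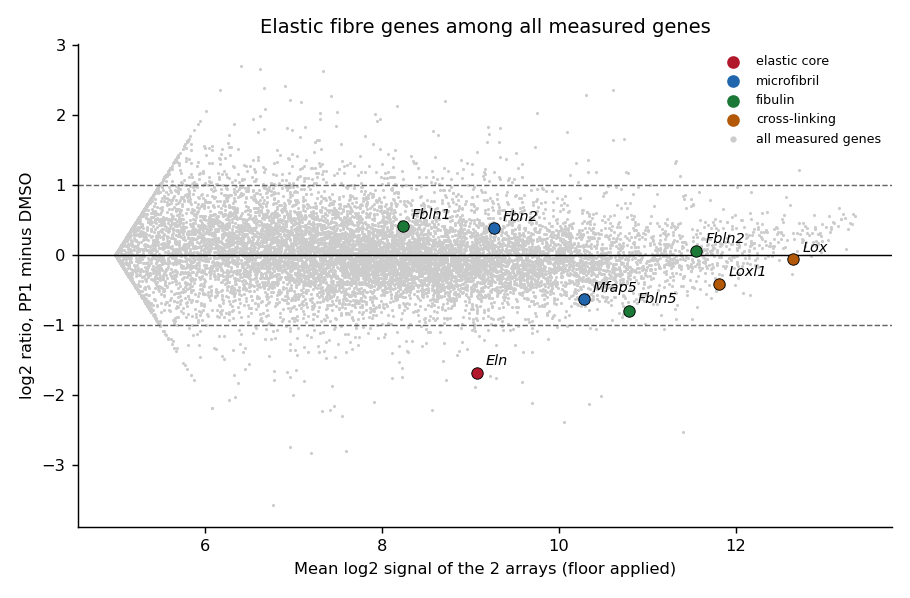
log2 ratio (PP1 minus DMSO) against mean log2 signal for all 12111 measured genes in grey, with the 8 elastic fibre genes coloured by role and dashed lines at 2-fold; the wedge at the left is set by the floor. Eln at -1.68 lies below the lower dashed line, and the other 7 lie between -0.80 and 0.41; all 8 lie below 0 in the values as deposited.

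The cross-linking enzymes gave the smallest differences among the lower genes. Lox, the lysyl oxidase that starts cross-links in both elastin and collagen, had signals of 6569 and 6299.6 by its representative probe set, a log2 ratio of -0.06. The second probe set, assigned to the same transcript sequence, read 5478 and 4787, a ratio of -0.19. The third read 69.3 with DMSO and 28.9, under the floor, with PP1. Its ratio of -1.13 is a bound, at least 2.18-fold lower, and without the floor it was -1.26. The 3 probe sets of Lox thus ranged over 1.07 on the log2 scale. Only the dim probe set was past 2-fold. Probe sets of signals like those of the first and second had median ratios of 0.20 and 0.18, and 16.6% and 7.2% of them were as low as these Lox values. A loess fit on mean signal put Lox at -0.25.

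Loxl1, the relative that is tied to elastin deposition through Fbln5, had signals of 4149.5 and 3127, a log2 ratio of -0.41. Its other probe set read 130.2 and 89.9, a ratio of -0.54. The 2 probe sets were close to each other, and 7.0% and 9.6% of probe sets of like signal were as low. Loxl1 lay 0.35 below Lox, which is within the SD of 0.41 between probe sets of a gene.

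Across the family, all probe sets above the floor lay on the same side of 0 in 6 of the 6 genes that had 2 or more, against 48.8% of the 5488 genes of this kind. The dim probe sets of Eln and Lox passed the floor with DMSO only, so their ratios could only fall below 0. For Eln, whose other probe set was at -1.68, the floor thus fixed the shared side. Sizes often differed: the gap between the highest and the lowest probe set was 1.61 for Eln, 1.07 for Lox, 0.62 for Mfap5, 0.29 for Fbn2, 0.22 for Fbln1 and 0.13 for Loxl1. At least 1 probe set was 2-fold lower or more in 3 genes, Eln, Mfap5 and Lox. These are 3 of the 15 probe sets above the floor, against 1.48% of all 21219 such probe sets, and 0 of the 15 were 2-fold higher, against 4.33%. The Lox probe set among the 3 is the dim one, which could only count as lower. The brighter Lox probe sets were at -0.06 and -0.19.

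On the log2 scale, the ratio of elastin minus that of a partner was -2.07 for Fbn2, -1.62 for Lox and -0.88 for Fbln5. The last gap is 1.85-fold and the smallest of the 3. No replicate was available to set these gaps against.

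**Figure D4:**
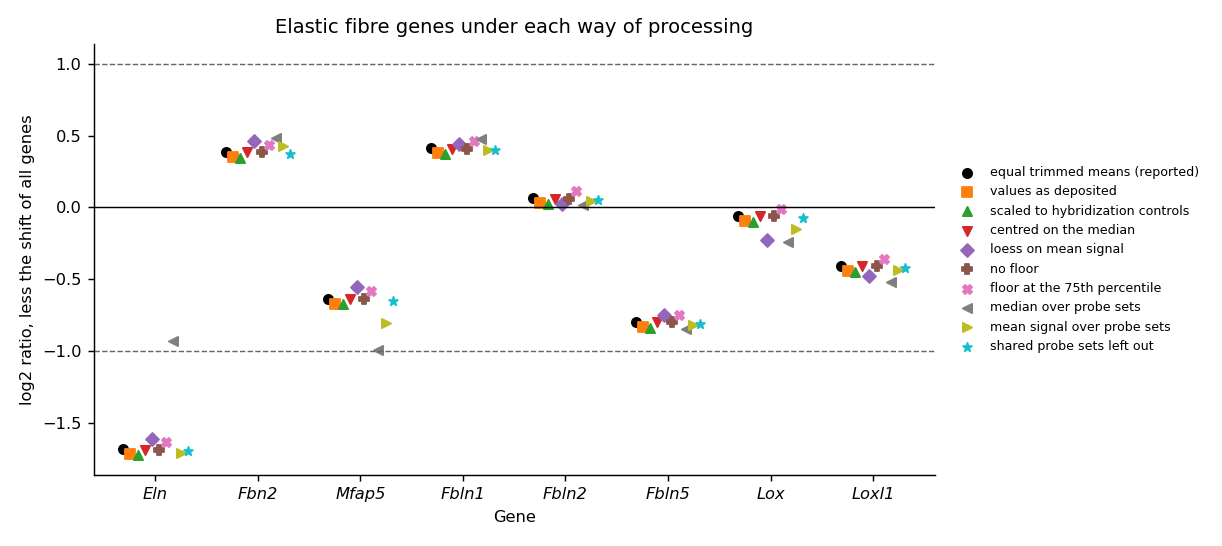
log2 ratio (PP1 minus DMSO) of the 8 genes under equal trimmed means, as reported, and 9 alternatives, each less the shift of the median of all genes under that alternative; dashed lines mark 2-fold. Every gene keeps its side of 0 in this relative measure, and Eln leaves the 2-fold range only with the median over its probe sets (-0.92). Alternatives that multiply the PP1 array by a constant could hardly change a side, since taking off the shift largely removes the constant. Without that correction, all 8 are below 0 as deposited and when scaled to the hybridization controls.

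Of 56 other genes of the elastic fibre pathway, listed by role, 52 had a probe set and 49 were measured. At least 2-fold higher were 3 of the 49 (against 2.97% of all genes) and at least 2-fold lower was 1 (against 1.55%), with a median log2 ratio of -0.02. As deposited the same counts were 0 higher and 13 lower, against 50 higher and 2877 lower of all 12291 genes measured there. With scaling to the hybridization controls they were 0 higher and 14 lower, against 35 higher and 3774 lower of all 12351. For 4 of the 56, Fkbp10, Adamts2, Adamts17 and Loxl2, no probe set was given to that gene alone.

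The 3 genes that were higher relative to the bulk of genes were all close relatives of the members. Fbln7, a cell-adhesive fibulin, had signals of 124.6 with DMSO and 404 with PP1, a log2 ratio of 1.70. Efemp1, the fibulin also called fibulin 3, read 1148 and 2617, a ratio of 1.19. Ltbp4, a latent TGF-beta binding protein that assists Fbln5 in elastic fibre assembly, read 80.8 and 170.4, a ratio of 1.08. Each rests on 1 probe set, and a floor at the 75th percentile left Ltbp4 at 0.13 relative to the bulk of genes. As deposited, the PP1 signals of Fbln7 (240.6), Efemp1 (1557) and Ltbp4 (101.4) were still above the DMSO signals. Among the members, Fbln1 was at 0.41, Fbln2 at 0.06 and Fbln5 at -0.80.

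Of the 21 other pathway genes with 2 or more probe sets above the floor, 11 had probe sets on both sides of 0. The other microfibril relatives were mixed. The latent TGF-beta binding protein Ltbp2 was at -0.68 and Ltbp1 at -0.02. Ltbp3 stood at 0.21 by its representative probe set and at -0.76 by its other, so its direction is not settled. Emilin1, a glycoprotein at the interface of elastin and microfibrils, was at -0.76, with its other probe set at 0.10. Mfap2, which like Mfap5 binds fibrillin, was at 0.45 (0.10 by its other probe set), from signals of 174 and 237. Mfap4 was dim, with a signal of 46.1 with DMSO and one under the floor with PP1; its ratio of -0.54 is a bound.

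Among the ADAMTS and ADAMTS-like proteins, some of which bind fibrillin microfibrils, Adamtsl3 was the lowest gene of the whole list. It was at -1.17 (392 against 174), by its 1 probe set. Adamts10 was at 0.85 (80.0 against 144.5) and Thsd4 at 0.70 (53.3 against 86.9), both from dim signals. All 5 proteoglycan and basement membrane genes were above 0 relative to the bulk of genes, with a median of 0.30 and none at 2-fold. Of all measured genes, 49.0% were below 0.

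Of 5 measured genes that support cross-linking, 4 were below 0, against 49.0% of all genes, with a median of -0.25 and none at 2-fold. The 4 include a dim gene whose ratio is a bound set by the floor. Loxl3 was the lowest of these at -0.96, from 728 to 373, by its 1 probe set. Loxl4 was at -0.62 by one probe set and 0.36 by the other. The copper transporter Atp7a, which supplies lysyl oxidases in the secretory pathway, was at 0.04 by one probe set and -0.27 by the other. Bmp1, the protease that activates pro-lysyl oxidase, was at -0.25, with its other probe set above the floor at 0.39.

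Transforming growth factor beta 1 (Tgfb1), a known inducer of elastin and of lysyl oxidase, was at -0.98, from 673 to 341, by its 1 usable probe set. Of the receptors for microfibrils and elastin, 5 of 8 measured genes were below 0, against 49.0% of all genes (median -0.02). Itgav, the integrin subunit that binds fibrillin and latent TGF-beta, was at -0.73, with probe sets up to 0.36, and the sialidase Neu1 of the elastin receptor complex was at 0.71. Of 11 proteases and inhibitors that act on elastic fibres, 7 were below 0, against the same 49.0%, and none was at 2-fold with the floor (median -0.13). The 7 include a dim gene with signals of 34.8 with DMSO and 9.58 with PP1. Its ratio is a bound set by the floor, and that bound is also the median of the list. The gelatinase Mmp9, which can cleave elastin, was at -0.81 from a dim signal (95.5 against 54.5).

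**Figure D5:**
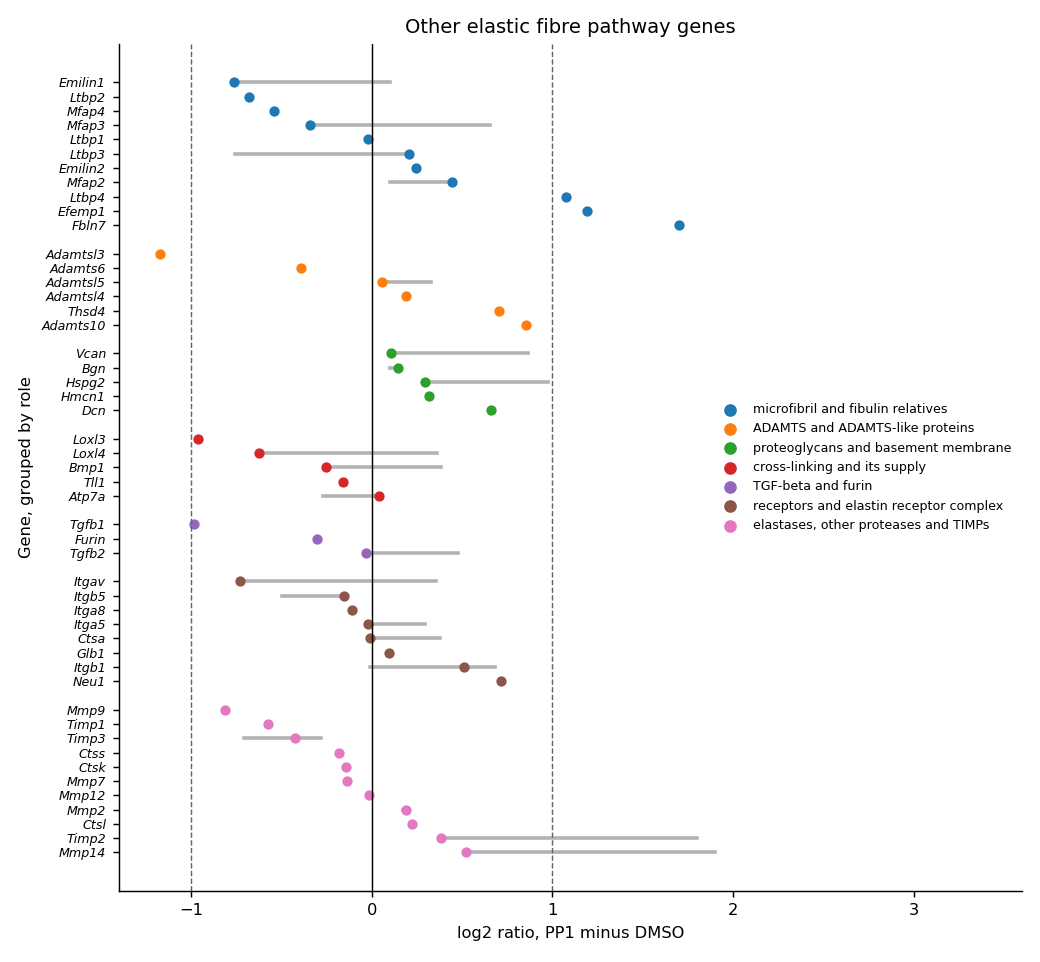
log2 ratio (PP1 minus DMSO) of the 49 measured other pathway genes, grouped by role, with grey bars from the lowest to the highest probe set above the floor and dashed lines at 2-fold. Fbln7, Efemp1 and Ltbp4 lie beyond the upper line and Adamtsl3 beyond the lower one, and the bars of 11 genes, Ltbp3, Emilin1, Itgav, Loxl4, Bmp1 and Atp7a among them, cross 0; the ratios are relative to the bulk of genes, whose median shifts by -0.71 as deposited.

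The cultures held more than osteoblasts, and elastic fibre genes are also known from smooth muscle and fibroblasts. Of 9 smooth muscle and pericyte markers 8 were measured and 6 were below 0, against 49.0% of all genes. At least 2-fold lower were 3 of the 8, against 1.55% of all genes, and 1 was at least 2-fold higher, against 2.97%, from Cspg4 at -1.74 to Des at 1.43. The other probe set of Cspg4 was at -0.68, Des had a DMSO signal of 39.4, near the floor, and 1 of the 3 lower ratios is a bound set by the floor. The summed signal of the 8 was 11447.5 with DMSO and 8685 with PP1, most of it from genes at -0.27 and -0.53. Myh11, a defining marker of smooth muscle, was under the floor on both arrays. Of 9 fibroblast and periosteum markers 7 were measured, 5 above 0 and 2 below, against 49.0% of all genes below 0. At least 2-fold higher were 2, against 2.97% of all genes, and at least 2-fold lower 0, against 1.55%. They ran from Thy1 at -0.30 to Scara5 at 1.66, with Pi16 under the floor. Their summed signal was 8235 with DMSO and 11545.5 with PP1, and the largest part of it came from a gene at -0.12. The part of these marker genes in the ratios of the elastic fibre genes was not tested. On whole-culture RNA, fewer cells of a type and less RNA per cell cannot be told apart.

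Of 8 osteoblast markers 4 were measured, from Ibsp at -2.08 to Col1a1 at 0.39; Runx2, Bglap and Spp1 had no probe set named here, and Dmp1 was under the floor. The summed osteoblast signal was 7977 with DMSO and 10264 with PP1, most of it from Col1a1. Without Col1a1 the other 3 measured markers summed to 418 and 333, and the list median was -0.03. Macrophage markers (6 of 6 measured, Cd14 at -0.01 to Mrc1 at 1.11, summed signal 7789.9 and 10063) and cartilage markers (6 of 7, Acan at -1.18 to Sox9 at 0.47, summed 6091 and 5318, Matn1 under the floor) were present as well. Endothelial markers (3 of 5, Kdr at -0.01 to Tek at 0.77, summed 90.2 and 131.2) were near the floor, with Pecam1 and Emcn under it. The 3′ to 5′ signal ratio of control transcripts, which depends on RNA integrity and labelling, was compared between the arrays on the log2 scale. PP1 minus DMSO gave -0.51 for Gapdh, -0.34 for Pcx and 0.14 for Actb, and the part of this in the ratios of the elastic fibre genes was not tested.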

How the data were processed

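Gene expression was measured on 2 Affymetrix mouse arrays, 1 for each condition. Per the labels' protocols, Trizol RNA was turned into biotinylated cRNA. The deposited values are linear signal intensities per probe set, made with MAS5 per the submitters' processing notes; for its version, target scaling and genome build the sources used here give nothing, nor for the number of animals in a culture.

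Gene names came from the platform annotation and were brought up to date by gene identifier with the RefSeq table of GRCm38.p6, which served for names only. Of 45037 non-control probe sets, 34945 had 1 gene (34741 matched by identifier), 932 had several and 9160 had none here; only the first kind was used. A factor of 1.68 on the PP1 array made the means after trimming 2% at each end equal (158.1 with DMSO and 94.1 with PP1 as deposited). Signals below the floor of 31.7, the median over both arrays, were then set to it, and log2 was taken. The probe set of a gene with the greatest mean log2 signal, taken before the floor, stood for the gene, which was measured if that probe set exceeded the floor with DMSO, PP1 or both. Genes were counted at 2-fold.

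With 1 array per group there was no replicate, no test and no p-value, and the number of arrays limits the precision. The SD between probe sets of 1 gene covers disagreement between probes only and is no replicate error. The steps were tested on simulated data first. The members and lists, and the alternatives tried, were chosen with earlier results of these data known. All 10 listed genes are named, with each of their probe sets; of the 56 other pathway genes, the text names the 6 highest and 6 lowest log2 ratios, the nearest relatives of the members and, of each marker list, its highest and lowest gene. The other genes of the list enter its counts only. One gene outside these 56 is not reported here. Outside that rule, some genes without a probe set or under the floor are also named. Mmp14 and Timp2 are named too, and are marked as picked after their values were seen. Promoter sequences are those of RefSeq on GRCm38.p6. The work used Python 3.11.15, pandas 2.3.3, scipy 1.17.1 and statsmodels 0.14.6.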

Additional observations from a re-analysis of the deposited data

How the results depend on the processing

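Each group was 1 array, so no array could be left out, and no paired analysis was possible because there was 1 sample in each group. The choice of scaling mattered most. As deposited, and when scaled to the hybridization controls, 4 elastic fibre genes were at least 2-fold lower in either setting, their median log2 ratio was -0.98 and -1.08, and it was -0.27 in both after the shift of all genes was taken off. The other pathway genes then gave 13 and 14 at least 2-fold lower and 0 higher in both. Of all measured genes, 2877 of 12291 and 3774 of 12351 were lower, and 50 and 35 higher. The counts of elastic fibre and pathway genes in these 2 settings are to be read against those shares. Centring on the median gave 2 lower pathway genes, and 208 lower of all 12095 genes. Without a floor there were 3 lower pathway genes, and 314 lower and 606 higher of all 12111 genes. A floor at the 75th percentile gave 84 lower and 111 higher of all 7526 genes measured there. The median over probe sets left 0 elastic fibre genes at 2-fold, with Eln at -0.88, because its dim probe set then counts equally. A 1.5-fold threshold gave 3 lower elastic fibre genes, 8 lower and 7 higher pathway genes, and 893 lower and 1282 higher of all genes; a 3-fold threshold gave 0 and 1 pathway genes and 42 and 60 of all genes, with Eln still counted. With the shift of all genes taken off, each of the 8 genes kept its side of 0 under all 9 alternatives to the processing. The values ran from -1.72 to -0.92 for Eln, -0.99 to -0.55 for Mfap5, -0.84 to -0.75 for Fbln5 and -0.52 to -0.36 for Loxl1. They ran from -0.24 to -0.01 for Lox, 0.02 to 0.11 for Fbln2, 0.34 to 0.48 for Fbn2 and 0.37 to 0.47 for Fbln1. Most of this was fixed in advance. The other scalings, apart from the loess fit, multiply the PP1 array by a constant, which taking off the shift largely removes. The other floors and the omission of shared probe sets left the ratios of these genes unchanged before the shift. Only the loess fit and the summaries over probe sets could readily have changed a side.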

Other observations

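Among proteins that act on the matrix around elastic fibres, the sizes for 2 genes depended on the probe set; they were picked after their values were seen. The collagenase Mmp14, a membrane-bound activator of Mmp2, was at 0.52 by its representative probe set, and its 3 probe sets above the floor ran up to 1.90. The protease inhibitor Timp2, which takes part in that activation, was at 0.38, and its 6 probe sets ran up to 1.80. In both genes every probe set above the floor lay above 0 relative to the bulk of genes, and the representative probe set gave the smallest ratio.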
